A study of Arabidopsis thaliana with 4 samples.

Results

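Heated seedlings of a line overexpressing the microRNA miR164 (miR164OE) were compared with heated wild-type (WT) seedlings of Arabidopsis thaliana, ecotype Col-0. Each group was 1 RNA library, so no difference has a replicate check, no p-value was computed, and every difference is between single libraries. The comparison used the rows of the deposited table whose mean over both heat libraries reached 20 FPKM and whose locus span was at least 300 bases. FPKM is the number of fragments per kilobase of transcript, scaled to the number of mapped fragments. In all, 2523 of 32823 rows met both criteria and are called the rows kept. A row was called higher or lower when log2(FPKM + 1) differed by at least 1, a 2-fold change, always as miR164OE minus WT.

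Plants grew at 22 °C, and heat was 35 °C for 5 days, begun on seedlings 5 days old. The unheated WT control and miR164OE control libraries, also 1 each, took no part in choosing the rows. Their age, the promoter and precursor behind the overexpression and the number of lines are not given in the available sources. Whole seedlings were sequenced, and in such bulk samples fewer cells of a type and less RNA per cell cannot be told apart.

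miR164 pairs with messenger RNAs of a small group of NAC transcription factors and directs their cleavage. Its targets separate organs at their boundaries (CUC1 and CUC2), promote lateral roots (NAC1) and drive leaf ageing (ORE1). Prolonged heat in plants brings chaperone synthesis and losses of photosynthetic capacity, and heat, wounding and jasmonate responses share many genes.

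The mature miRNAs are shown because they define the overexpressed sequence and its seed, given in capitals (bases 2 to 8), as annotated by RefSeq on TAIR10.1. miR164a is at chr2:19520770-19520790 on the plus strand, miR164b-5p at chr5:287586-287606 on the plus strand and miR164c-5p at chr5:9852684-9852704 on the plus strand. All 3 share 1 seed, and miR164c-5p differs from the others in its last base.
miR164a: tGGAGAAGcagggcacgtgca
miR164b-5p: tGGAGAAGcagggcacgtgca
miR164c-5p: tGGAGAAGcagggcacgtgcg

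The best-paired site in each of 6 NAC genes follows, 5′ to 3′, with capitals for bases that are not complementary to miR164a (G:U pairs are counted as not complementary). Each site lies in coding sequence. The file names NAC1 as NAC021 (site chr1:20947142-20947162, minus strand), ORE1 as NAC92 (chr5:15858797-15858817, minus), CUC1 as NAC054 (chr3:5111137-5111157, plus) and CUC2 as NAC098 (chr5:21902301-21902321, minus). NAC079 (chr5:2436958-2436978, plus) and NAC100 (chr5:24701687-24701707, minus) are the other 2.
NAC021: AgcacgtAccctgcttctcca
NAC92: CTcacgtgAcctgcttctccG
NAC054: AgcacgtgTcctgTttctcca
NAC098: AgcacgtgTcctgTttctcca
NAC079: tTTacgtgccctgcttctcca
NAC100: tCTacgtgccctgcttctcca

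By that count NAC021, NAC079 and NAC100 have 2 noncomplementary bases each, NAC054 and NAC098 have 3, of which 1 lies opposite the seed, and NAC92 has 4. The 1 opposite the seed is a T facing a G, a G:U pair in RNA. Only NAC021 was among the rows kept. Its level was 5.43 FPKM in WT control, 11.0 in miR164OE control, 38.3 in WT heat and, lower, 27.2 in miR164OE heat. The heated difference was -0.48 on the log2 scale, under 2-fold, and the 95% counting interval of the log2 ratio (-1.03 to 0.07) included 0. That interval, here and below, rests on estimated fragment numbers and covers counting error only. The row on the other strand over 809 bases of NAC021, AT1G08087, went the same way, from 96.2 FPKM in WT heat to 65.7 in miR164OE heat (-0.54).

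NAC92, the leaf ageing regulator, was listed at 2.73 FPKM in WT control, 0 in miR164OE control, 11.2 in WT heat and 1.48 in miR164OE heat. It was below the minimum for the rows kept, and its values stand for about 8.43 fragments in WT heat and 1.60 in miR164OE heat. NAC054, NAC098, NAC079 and NAC100 were listed at 0 in all 4 libraries, as were the precursor rows MIR164A, MIR164B and MIR164C. The overexpression itself was therefore not checked by these data. Over the 6 NAC rows the heated level was lower in miR164OE in both that had a value.

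Depth differed between the libraries. A fragment on a 1 kb transcript was worth about 1.75 FPKM in WT heat against 1.21 in miR164OE heat, against 1.99 and 2.23 in WT control and miR164OE control. The mode of low values gave these worths, so they are estimates. The median row kept held about 110 fragments over both heat libraries. Of the nuclear rows kept, 1561 were annotated as coding and 838 as lncRNA. Most FPKM lay on rows opposite another gene: the 1076 rows lying opposite a gene over at least 50% of their exons held 82.5% of the FPKM of the rows kept in WT heat, against 82.2% in miR164OE heat. The library kit was strand-specific per the labels, but the strand setting used in counting is not given in the sources used here. A gene and the row opposite it therefore cannot be told apart, and both are given where both were kept. Rows are named as annotated, and whether counting swapped the strands was not tested. Seed storage markers were at 0 for 7 of 7 genes in WT heat and 6 of 7 in miR164OE heat. Of 9 root markers 6 were at 0 in each library, and their summed FPKM was 30.3 in WT control, 28.3 in miR164OE control, 29.4 in WT heat and 49.1 in miR164OE heat. BGLU23 alone gave 22.6 FPKM of the sum in WT heat and 41.7 of that in miR164OE heat. The sums therefore mostly follow 1 gene and are no measure of root content.

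After heat, 173 rows (6.86%) were at least 2-fold higher in miR164OE and 192 (7.61%) at least 2-fold lower, together 14.5% of the rows kept. The median difference was -0.13 on the log2 scale, with quartiles of -0.46 and 0.24. Rescaling the nuclear rows to a common sum moved the median by 0.10, to -0.04. Calls were concentrated in rows with few fragments. Among nuclear rows with under 20 estimated fragments 58.7% were called, among those with 80 to 160 fragments 8.70%, and among those with at least 400 fragments 1.62% (6 higher and 2 lower of 495). Of the 365 rows called, 105 were listed at 0 in 1 of the 2 libraries.

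**Figure D1:**
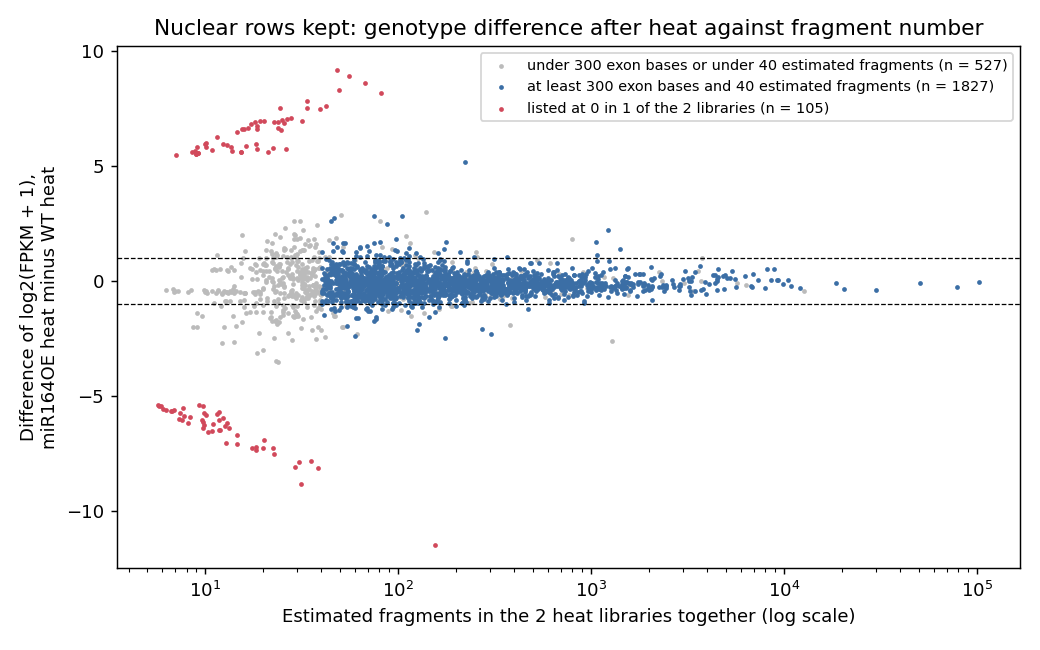
Difference of log2(FPKM + 1), miR164OE heat minus WT heat (vertical axis), against the estimated fragments of both heat libraries together (horizontal axis, log scale) for the 2459 nuclear rows kept, with dashed lines at 2-fold. The points narrow around the median of -0.13 as fragments increase, and the 105 rows listed at 0 in 1 library form the outer bands.

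The highest and lowest differences were short rows seen in 1 library. All 12 of the highest were listed at 0 in WT heat, with 101 to 343 exon bases, 128 to 577 FPKM in miR164OE heat and about 24.3 to 81.1 fragments. All 12 of the lowest were listed at 0 in miR164OE heat, with 96 to 272 exon bases, 148 to 2817 FPKM in WT heat and about 17.4 to 155 fragments. A gene lay on the other strand of all 12 of the highest and 10 of the lowest. Of all 2459 nuclear rows kept, 747 had no gene opposite. The snRNA row AT3G08605, highest after heat at 577 FPKM in miR164OE heat and 0 in WT heat, stood the other way without heat, at 1587 FPKM in WT control against 0 in miR164OE control. AT5G64395, lowest after heat at 2817 FPKM in WT heat against 0 in miR164OE heat, was likewise at 0 in WT control and 1698 in miR164OE control. Both rows were thus listed at 0 in opposite genotypes with and without heat.

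For most named genes that follow, a narrower set was taken after the values were seen: nuclear rows with at least 300 exon bases and at least 40 estimated fragments over the 2 heat libraries, called well covered. Of 1828 such rows, 47 (2.57%) were higher and 50 (2.74%) lower. Coding rows with no gene opposite made up 11 of the 47 and 13 of the 50. Rows of any kind with no gene opposite made up 12 of the 47 and 15 of the 50, against 624 of the 1828. All 47 higher calls were kept when the nuclear rows were rescaled, and 36 of the 50 lower ones were. That rescaling multiplied nuclear values of miR164OE heat by 1.07, so it could remove lower calls but no higher call. Keeping all 47 is therefore no check on them.

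Among the well covered rows listed above 0 in both libraries, the highest difference lay opposite ENDO2, which encodes an endonuclease that cuts RNA and single-stranded DNA. The row AT1G08973, with 815 exon bases opposite the ENDO2 locus, was at 0 FPKM in WT control, 31.2 in miR164OE control, 4.42 in WT heat and 193 in miR164OE heat. It was 43.7-fold higher after heat, from about 3.47 against 219 fragments, with a log2 interval of 4.10 to 7.95. It was thus higher in miR164OE with and without heat. ENDO2's own row was at 3.33 FPKM in miR164OE control and 8.42 in miR164OE heat, and at 0 in both WT libraries.

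VSP2, a vegetative storage protein whose transcript is induced by jasmonate and wounding, was 7.84-fold higher. Its level was 4.09 FPKM in WT control, 3.80 in miR164OE control, 7.06 in WT heat and 55.3 in miR164OE heat, so miR164OE heat stood alone (log2 interval 1.80 to 4.49). Its near-identical neighbour VSP1, below the minimum, was at 5.03, 7.10, 3.54 and 11.0 FPKM in the same order, and reads may have been split between both copies. AT4G33560, annotated as a wound-responsive family protein, was at 84.1 FPKM in WT heat against 198 in miR164OE heat (1.22), but at 241 and 274 FPKM in WT control and miR164OE control. The low library for this row was WT heat.

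The other jasmonate genes did not share the size of the VSP2 difference. Of 21 genes in the jasmonate signalling and response list 3 were kept, 1 higher and 0 lower, with a median difference of 0.72. SOT15, a sulfotransferase acting on hydroxyjasmonate, was at 16.8 FPKM in WT heat against 28.4 in miR164OE heat (0.72), and MYC2, the transcription factor of the pathway, at 25.6 and 22.6 (-0.17). The row AT1G32630, opposite MYC2 over 3241 bases, was at 874 and 1042 FPKM (0.25). AOC4, an allene oxide cyclase and the 1 of 12 jasmonate synthesis genes kept, was at 24.4 and 22.1 FPKM (-0.14).

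The rows opposite 2 neighbouring genes on chromosome 4, AIR1 and AIR1B, were higher in miR164OE heat. AIR1 and AIR1B are lipid-transfer-like proteins that were named for auxin induction in root cultures. The row AT4G12555, opposite AIR1 over 285 bases, was at 204 FPKM in WT control, 1308 in miR164OE control, 859 in WT heat and 4029.9 in miR164OE heat (2.23, interval 1.98 to 2.48). AT4G12543, opposite AIR1B over 380 bases, was at 53.6, 772, 775 and 2518 FPKM in the same order (1.70, interval 1.47 to 1.93). Both rows were higher in miR164OE with and without heat, and higher after heat in both genotypes. The own rows of AIR1 and AIR1B were at 0 in all 4 libraries.

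Their neighbours did not all follow. AT4G12495, a row of 282 exon bases inside the lipid-transfer gene AT4G12490, was at 5998 FPKM in WT heat against 12002 in miR164OE heat (interval 0.89 to 1.11), but at 1888 in WT control and 812 in miR164OE control. AZI1, a mobile defence-priming protein, was at 36.8, 7.03, 8.02 and 35.2 FPKM in WT control, miR164OE control, WT heat and miR164OE heat. EARLI1, its close relative, was at 3.54, 0, 7.09 and 36.7 FPKM in the same order. AZI1 was therefore higher in miR164OE after heat (2.01) and lower without it (-2.24), on about 3.97 and 25.1 heat fragments. AT4G12495, AZI1 and EARLI1 fall short of the well covered minimums, by exon bases for the first and by fragments for the others. AT4G12530 went the other way after heat, from 73.3 FPKM in WT heat to 48.2 in miR164OE heat (-0.60, interval -1.41 to 0.15). LTP2, a lipid transfer protein of the epidermis, was at 11.8, 2.67, 14.5 and 47.7 FPKM, 3.29-fold higher after heat, and its relative LTP1 at 16.7, 27.7, 31.9 and 57.2 (0.82).

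Further lipid-transfer genes on chromosome 4 went both ways. AT4G22470 was higher, at 61.8 FPKM in WT heat against 149 in miR164OE heat (1.26), while AT4G22467, opposite it over 1155 bases, was at 2306 and 2732 FPKM (0.24). AT4G22510, opposite AT4G22513, was at 126 FPKM in WT heat against 36.5 in miR164OE heat (-1.76), after 2091 and 1230.4 in WT control and miR164OE control. AT4G22495, opposite AT4G22505, was at 58.2 and 27.2 FPKM (-1.07).

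Among the other higher rows, LECRK56, a lectin receptor-like kinase, was at 1.30 FPKM in WT control, 5.98 in miR164OE control, 294 in WT heat and 772 in miR164OE heat. It rested on about 297 and 1124 heat fragments, and its log2 interval was 1.21 to 1.58 around a difference of 1.39. Its neighbour LECRK57 was at 0 in WT heat and 1.65 FPKM in miR164OE heat. AT4G14120, which overlaps XTH15 (a xyloglucan endotransglucosylase of the wall) by 382 bases on the other strand, was at 33.2, 15.4, 8.74 and 66.5 FPKM in WT control, miR164OE control, WT heat and miR164OE heat. XTH15's own row was at 5.69 FPKM in WT heat against 1.94 in miR164OE heat, about 3.93 and 1.93 fragments.

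Of enzymes of the methyl cycle, SAHH1, which removes S-adenosylhomocysteine, was at 8.40, 2.99, 17.7 and 49.8 FPKM in WT control, miR164OE control, WT heat and miR164OE heat (1.44, interval 0.78 to 2.18). SAM2, which makes S-adenosylmethionine and has close copies, was at 16.3 FPKM in WT heat against 34.3 in miR164OE heat (1.03, interval 0.22 to 1.97). ERD14, a dehydrin, was at 63.9, 41.1, 20.3 and 68.1 FPKM, 3.35-fold higher after heat. Here again WT heat was the low library, and miR164OE heat was close to WT control. MT3, a metallothionein, was at 185, 77.0, 45.2 and 97.4 FPKM (1.09), and APX1, the cytosolic ascorbate peroxidase, at 22.5, 15.1, 12.7 and 32.0 (1.26). Of the transcription factors, ERF055 was at 19.1 FPKM in WT heat against 50.5 in miR164OE heat (1.35), and HAT5, a homeobox factor, at 22.2 and 49.4 (1.12).

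**Figure D2:**
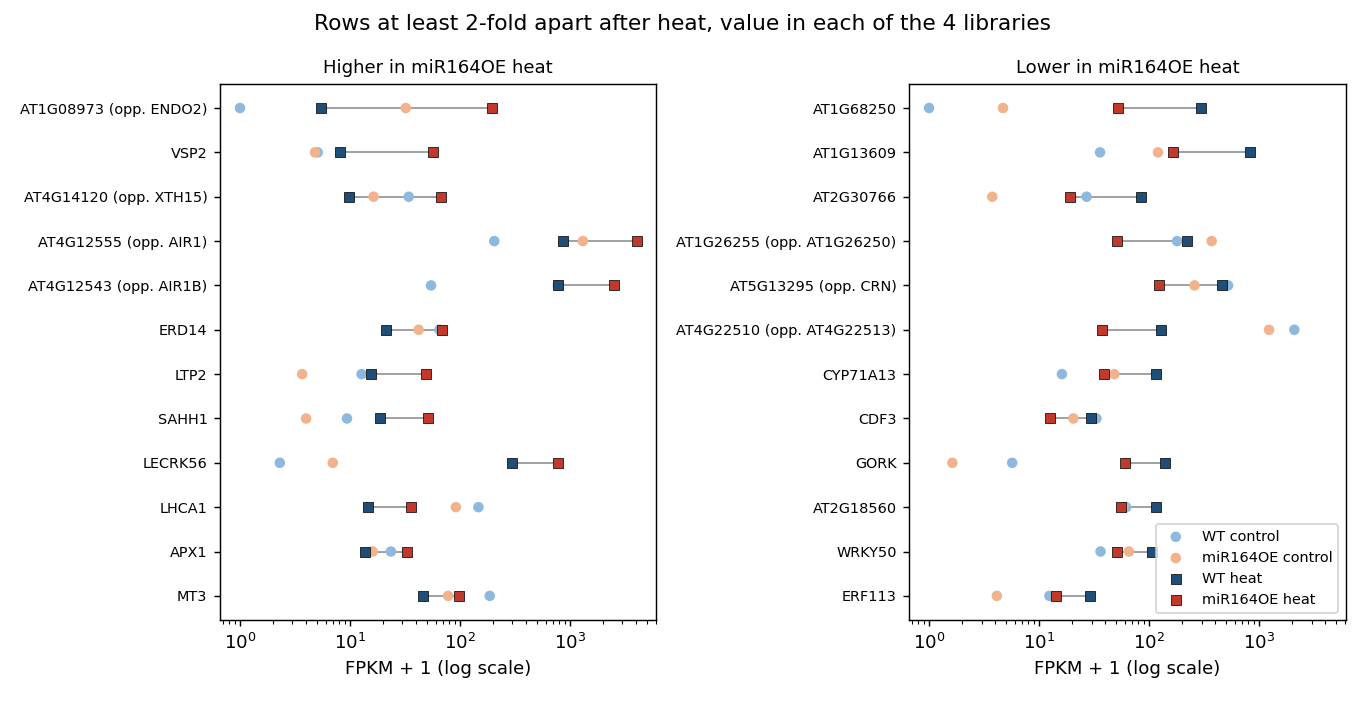
FPKM + 1 (horizontal axis, log scale) of 12 well covered rows higher and 12 lower in miR164OE heat than in WT heat; circles are the control libraries, squares the heat libraries, and a grey line joins the heat pair. VSP2 stands at 55.3 FPKM in miR164OE heat against at most 7.06 in the other libraries, while LECRK56 and GORK are high in both heat libraries.

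Of the well covered rows that were lower, AT1G13609, a defensin-like protein, was at 34.8 FPKM in WT control, 119 in miR164OE control, 824 in WT heat but 165 in miR164OE heat. The heated level was 5.00-fold lower in miR164OE (interval -2.73 to -1.93), on about 236 and 68.1 fragments, whereas the unheated level was higher in miR164OE. CYP71A13, a cytochrome P450 of camalexin synthesis, was at 15.1, 47.2, 115 and 37.7 FPKM in the same order (-1.59), the same arrangement. AT2G30766, which has 330 exon bases opposite the CYP71A13 locus, was at 26.1, 2.75, 83.3 and 18.1 FPKM (-2.14), lower in miR164OE with and without heat. WRKY50, a transcription factor of salicylic acid and jasmonate defence, was at 105 FPKM in WT heat against 49.8 in miR164OE heat (-1.05). AED3, an apoplastic aspartyl protease, was at 39.4 and 17.5 FPKM (-1.13, but -0.995 centred, under 2-fold).

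The lowest difference among well covered rows was that of AT1G68250, an uncharacterized protein. It was at 0 FPKM in WT control, 3.70 in miR164OE control, 295 in WT heat and 51.2 in miR164OE heat, 5.75-fold lower on about 139 and 34.9 fragments. Both heat libraries stood above both controls, and WT heat was highest. GORK, the outward potassium channel of guard cells, had the same order after heat. It was at 4.69, 0.628, 138 and 58.8 FPKM, 2.34-fold lower in miR164OE heat (interval -1.51 to -0.96), and miR164OE was the lower of the controls as well.

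Of the other lower rows, AT1G26255, opposite the extensin-like gene AT1G26250 over 1443 bases, was at 179, 369.8, 219 and 50.4 FPKM in WT control, miR164OE control, WT heat and miR164OE heat (-2.10, interval -2.53 to -1.71). The genotypes therefore differed in the opposite direction in the heat libraries and in the controls, and an effect of heat on that direction was not tested. AT5G13295, opposite CRN (a receptor kinase of the CLAVATA pathway in the shoot meristem), was at 522, 258, 455 and 122 FPKM (-1.89). AK1, an aspartate kinase that also lies partly opposite the CRN locus, was at 30.4 FPKM in WT heat against 14.2 in miR164OE heat (-1.05). CIPK13, a kinase that partners calcium sensors, was at 58.9 and 24.5 FPKM (-1.23). CDF3, a cycling DOF factor, was at 28.9 and 11.6 FPKM (-1.25), and ERF113, an ethylene response factor, at 27.9 and 13.3 (-1.01). WRKY50, AK1, ERF113 and AT4G22495 were under 2-fold once the nuclear rows were rescaled.

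The gene lists were read against the whole comparison, in which 6.86% of rows were higher and 7.61% lower and the median was -0.13. Light-harvesting and photosystem genes, which capture light and carry electrons in the chloroplast, had 13 of 41 own rows kept, 1 higher and 0 lower. Their median was 0.39 (range -0.20 to 1.28), and 11 of 13 were above 0. Over all coding rows of 20 to 50 FPKM with at least 300 exon bases, 40.9% were above 0. LHCA1, an antenna protein of photosystem I, was the 1 higher member, at 146 FPKM in WT control, 90.7 in miR164OE control, 13.6 in WT heat and 34.5 in miR164OE heat. LHCA4, its partner in the antenna, was at 264, 169, 59.5 and 86.8 FPKM (0.54). PSBO1, of the oxygen-evolving complex, was at 58.7 FPKM in WT heat against 66.2 in miR164OE heat (0.17), and PSBR at 108 and 103 (-0.06). Both heat libraries lay below both controls for LHCA1, LHCA4, PSBO1 and PSBR.

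The abundant rows opposite photosystem genes did not share that direction. Of 3 kept, 0 were higher or lower by 2-fold, and the median was -0.38. AT1G55673, opposite the photosystem I subunit gene PSAG, was at 171972 FPKM in WT control, 182750.0 in miR164OE control, 52342 in WT heat and 40225 in miR164OE heat (-0.38). AT4G28755, opposite PSAE1, was at 38249 FPKM in WT heat against 27964 in miR164OE heat (-0.45), and AT2G08665, opposite the antenna gene LHB1B2, at 72862 and 69274 (-0.07). The own rows of these genes were at 32.4 and 28.1 FPKM for PSAG (-0.20), 22.6 and 32.4 for PSAE1 (0.50), and 29.6 and 43.1 for LHB1B2 (0.53). Over the 135 genes whose opposite row had a mean of at least 1000 FPKM, the summed own rows came to 0.823% of the opposite rows in WT heat and 0.778% in miR164OE heat. For all 135 the own row was below the opposite row in both heat libraries. A gene's own row and the row opposite it thus gave different signs for PSAE1 and LHB1B2, and after rescaling of the nuclear rows the small difference of AT2G08665 turned positive.

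Calvin cycle genes had 4 of 20 own rows kept, 0 higher and 0 lower, with a median of 0.29, all 4 above 0. RCA, rubisco activase, whose protein is heat-labile, was at 178, 138, 55.2 and 93.7 FPKM in WT control, miR164OE control, WT heat and miR164OE heat (0.75, interval 0.35 to 1.20). RBCS-1A, a rubisco small subunit with near-identical copies, was at 72.3 FPKM in WT heat against 78.0 in miR164OE heat (0.11). None of the 20 genes of chlorophyll synthesis and breakdown was kept.

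No heat shock gene that was kept differed 2-fold between the heated genotypes at the deposited scale, but ATJ3, given below, passed 2-fold under both other scalings. Small heat shock proteins, which hold unfolding proteins, had 3 of 16 own rows kept, 0 higher and 0 lower, with a median of 0.46. HSP18.1 was at 25.1 FPKM in WT control, 24.4 in miR164OE control, 64.9 in WT heat and 113 in miR164OE heat (0.79, interval 0.24 to 1.41), HSP15.7 at 39.3 and 54.4 in the heat libraries (0.46), and HSP17.6A at 26.0 and 27.0 (0.05). The row AT3G07365, opposite HSP17.4A over 453 bases, had much deeper coverage. It was at 306 FPKM in WT control, 287 in miR164OE control, 8610.2 in WT heat and 9026 in miR164OE heat, a difference of 0.07 with an interval of -0.01 to 0.15. The heated genotypes were within 1.05-fold of each other there, and both controls were far below.

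Larger chaperones had 2 of 23 genes kept, 0 called. MED37E, a cytosolic HSP70 cognate, was at 30.8 FPKM in WT heat against 54.8 in miR164OE heat (0.81), and ATJ3, a DnaJ partner, at 14.1 and 27.2 (0.91, but 1.005 with nuclear rows rescaled and 1.04 centred). The heat shock regulators had 2 of 10 own rows kept, 0 called, in opposite directions. HSFB2A, a class B heat shock factor, was at 16.0 and 28.3 FPKM (0.79), and MBF1C, a coactivator needed for heat tolerance, at 40.7 and 25.3 (-0.67). The row opposite MBF1C, AT3G04685, was also lower, at 1371 FPKM in WT heat against 717 in miR164OE heat (-0.93, interval -1.32 to -0.56). AT4G05910, opposite HSFB2B, was at 1646 and 1374 FPKM (-0.26). None of 17 endoplasmic reticulum folding genes was kept.

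The antioxidant enzymes had 2 of 23 genes kept, 1 higher and 0 lower: APX1, given above, and CAT3, a catalase, at 28.3 FPKM in WT heat against 43.1 in miR164OE heat (0.59). Genes of abscisic acid and cold response had 3 of 11 kept, 0 called, with a median of 0.56. COR47 was at 20.8 and 42.0 FPKM in WT heat and miR164OE heat (0.98, but 1.08 with nuclear rows rescaled and 1.11 centred, past 2-fold), COR15B, a chloroplast protectant, at 67.0 and 99.3 (0.56), and ERD10 at 194 and 137 (-0.50, interval -0.81 to -0.20). COR47 and ERD10 are dehydrins like ERD14, so this small family went both ways. In the cuticle and lipid transfer list, 2 of 17 were kept, LTP2 higher and LTP1 under 2-fold, as given above, while the row opposite CYP86A2, a cutin enzyme, was at 4134 and 4088 FPKM (-0.02).

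Flavonoid and anthocyanin genes had 1 of 14 own rows kept, UGT75C1, an anthocyanin glucosyltransferase, at 27.9 FPKM in WT heat against 17.4 in miR164OE heat (-0.65). The short row opposite it, AT4G06175, was at 131 and 37.8 FPKM (-1.77) on about 16.2 and 6.75 fragments, and the row opposite F3H, a flavanone hydroxylase, was at 231 and 217 (-0.09). In the phase change list SPL3, a factor of the juvenile to adult transition, was at 27.0 and 21.5 FPKM (-0.32), and AT2G33815, which covers 955 of its bases on the other strand, at 309.8 in WT control, 284 in miR164OE control, 45.2 in WT heat but 18.4 in miR164OE heat (-1.25). The row opposite SPL4 was listed at 0 in WT heat and 61.1 FPKM in miR164OE heat, about 9.92 fragments.

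Leaf senescence genes had 2 of 15 kept and 0 called: XTH24 was at 17.6 FPKM in WT heat against 27.2 in miR164OE heat (0.60), and NAC083 at 29.7 and 25.9 (-0.19). The circadian list had 2 of 12 kept and 0 called: RBG7, a glycine-rich RNA-binding protein, was at 23.2 and 34.4 FPKM (0.55), and PCL1, a clock component, at 22.2 and 18.7 (-0.23). HTA4, the 1 of 17 histone genes kept, was at 42.7 and 22.1 FPKM (-0.92). BGLU23, a root beta-glucosidase and the 1 of 9 root markers kept, was at 21.1, 22.3, 22.6 and 41.7 FPKM in WT control, miR164OE control, WT heat and miR164OE heat (0.85). The part of root content in the other differences was not tested. None of the 25 glucosinolate, 9 salicylic acid, 12 auxin, 7 seed and 28 ribosomal protein genes of the lists was kept by its own row. The row opposite NPR1, a salicylic acid receptor, was at 50.2 and 82.1 FPKM (0.70).

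**Figure D3:**
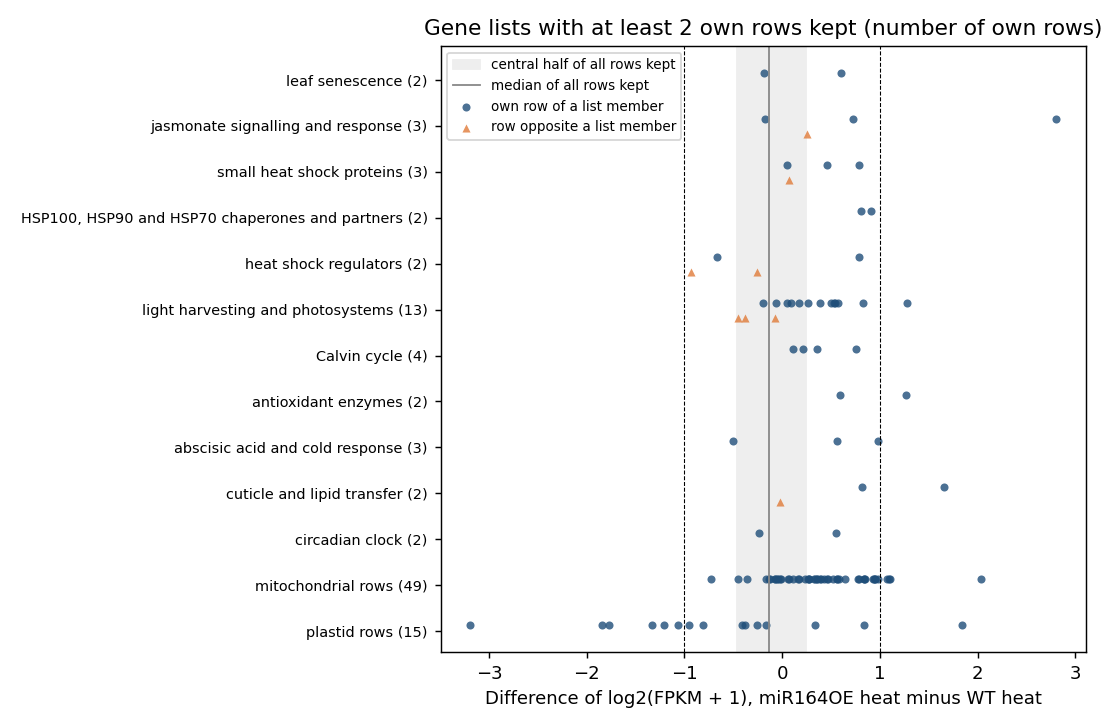
Difference of log2(FPKM + 1), miR164OE heat minus WT heat (horizontal axis), for each list with at least 2 own rows kept; blue circles are own rows, orange triangles rows opposite a list member, grey shading the quartiles of all rows kept (-0.46 to 0.24) and dashed lines 2-fold. Own rows of photosystem genes lie mostly to the right of the median and the 3 rows opposite such genes to its left or beside it.

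Median differences of mitochondrial and plastid rows had opposite signs. Mitochondrial rows had 4 of 49 higher and 0 lower, with a median of 0.36, and 37 were above 0. Their summed FPKM was 1172 in WT control, 1338 in miR164OE control, 28757 in WT heat and 34833 in miR164OE heat. NAD9, a subunit of respiratory complex I, was at 10.3 FPKM in WT heat against 45.1 in miR164OE heat, NAD1C at 23.5 and 51.5, ORF149 at 64.4 and 139, and ORF204 at 15.5 and 33.8. At the other end were NAD4L, another complex I subunit, at 109 and 65.7 FPKM (-0.73), CCB203 at 54.2 and 39.4 (-0.45) and ORF205 at 32.2 and 24.8 (-0.36). The most abundant row, ORF107A, was at 563, 742, 16209 and 19566 FPKM (0.27).

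Plastid rows had 1 of 15 higher and 6 lower, with a median of -0.81 that became -0.42 at a mean of 5 FPKM (33 rows) and -0.44 with no minimum (42 rows), and their sum was 614 FPKM in WT heat against 352 in miR164OE heat. RPS4, a ribosomal protein, was at 24.7 FPKM in WT control, 11.5 in miR164OE control, 74.8 in WT heat and 7.28 in miR164OE heat, 10.3-fold lower after heat. RPS3, also ribosomal, was at 47.2 and 12.5 FPKM in the heat libraries (-1.84) and NDHG, of the NDH complex, at 62.5 and 17.6 (-1.77). Subunits of that complex did not move together: NDHH was at 8.98 FPKM in WT heat against 34.7 in miR164OE heat (1.84) and NDHD at 17.7 and 32.5 (0.84). PETA, cytochrome f, was at 19.3 and 24.7 FPKM (0.34). No fragment numbers were estimated for organelle rows, so their calls and folds have no check on counting error. Among nuclear rows kept, 58.7% of those with under 20 fragments were called, and 40.4% of those with 20 to 40. Whether the plastid calls exceed what few fragments give was not tested.

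**Figure D4:**
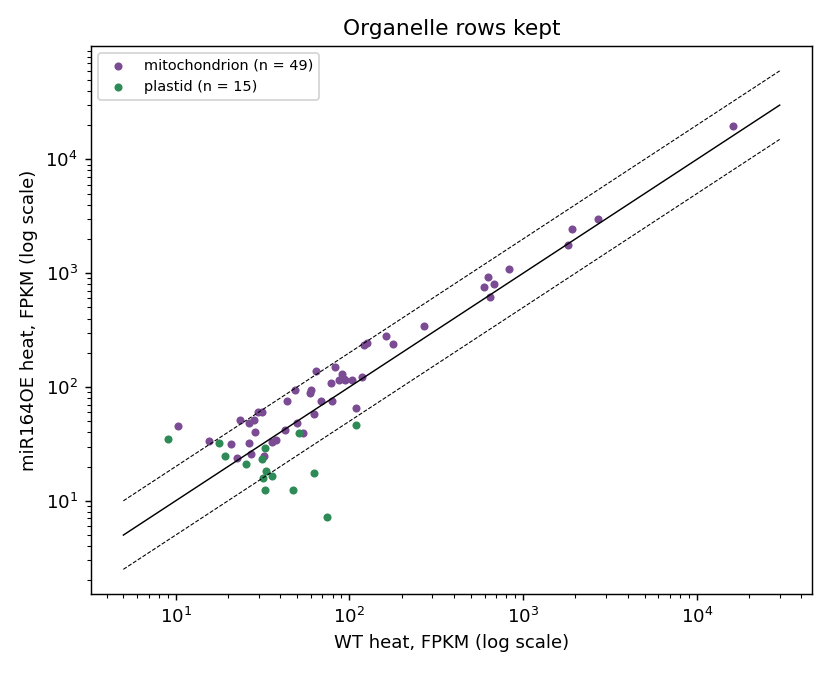
FPKM in miR164OE heat (vertical axis, log scale) against WT heat (horizontal axis, log scale) for the 49 mitochondrial and 15 plastid rows kept; the solid line marks equal values and dashed lines 2-fold. Most mitochondrial points lie above the line of equal values (37 of 49 by difference), and 6 plastid points lie below the lower dashed line.

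The unheated libraries gave a comparison of the same genotypes that shares no library with the heated one. On the rows kept, 231 (9.16%) were higher in miR164OE control than in WT control and 221 (8.76%) lower, 17.9% in all. On well covered rows the counts were 88 (4.81%) and 97 (5.31%), 10.1% in all. Those rows met the fragment minimum in the heat libraries, and no minimum was set on the control libraries. Of the 47 well covered rows higher after heat, 10 were also higher without heat, 12 were lower and 25 were under 2-fold. Of the 50 lower after heat, 7 were also lower without heat, 7 were higher and 36 were under 2-fold. Across the 1828 well covered rows Pearson's r between the heated and unheated differences was 0.03 and Spearman's rho 0.01, given as a description across genes, which are not independent replicates. Of the well covered rows called after heat, 53.2% of the higher and 72.0% of the lower were thus under 2-fold without heat. Over all well covered rows 10.1% were called without heat, so rows called after heat were called there more often than rows in general. That background was not matched for fragments. Among nuclear rows kept, 12.8% of those with 40 to 80 fragments were called after heat, against 1.62% with at least 400. Whether the excess goes beyond this dependence on fragments was not tested.

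**Figure D5:**
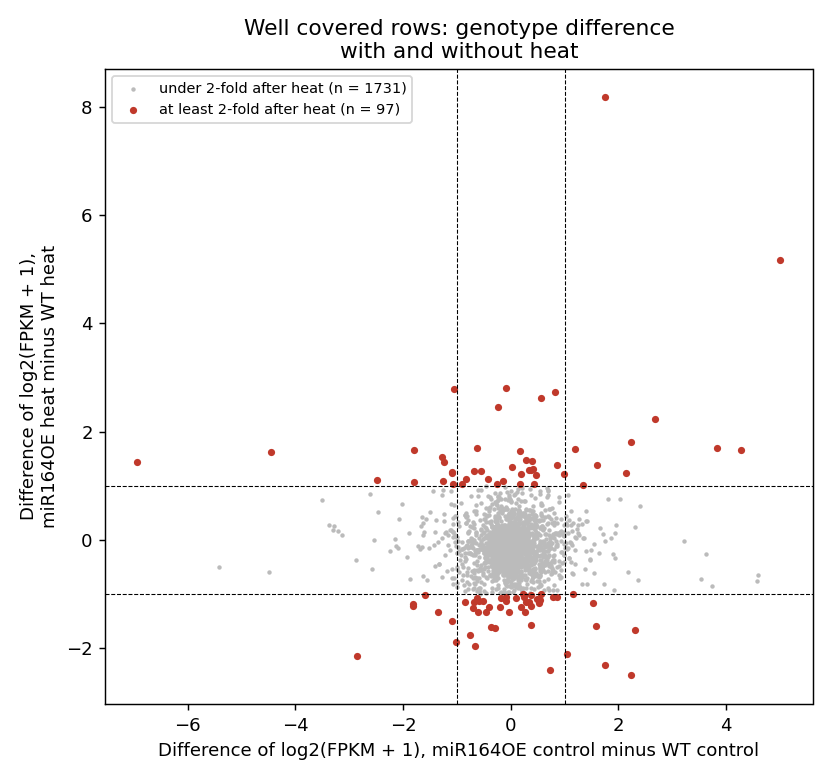
Difference of log2(FPKM + 1) between miR164OE and WT after heat (vertical axis) against the same difference without heat (horizontal axis) for the 1828 well covered rows; red points are the 97 at least 2-fold apart after heat, and dashed lines mark 2-fold. The cloud has no slope (r = 0.03), and red points fall on both sides of the vertical axis.

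The 10 rows with the highest mean FPKM differed by at most 0.45 in size. Besides the 3 opposite photosystem genes and ORF107A, they were AT3G22121, opposite the wall protein gene CWLP, at 45969.9 FPKM in WT heat against 37878 in miR164OE heat (-0.28), and rows opposite TUFA (-0.09), CSP41A (-0.20), PSRP5 (-0.02), COPT5 (-0.09) and EXT3 (0.04). TUFA, CSP41A and PSRP5 act in chloroplast translation or RNA handling, and EXT3 is an extensin of the wall. Between the heated genotypes the most abundant RNAs thus stayed within 2-fold.

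The minimums left close neighbours on either side. AT5G59662 (19.96 FPKM, difference 0.47) and AT2G41730 (19.98 FPKM, 1.80) were just under the mean of 20 FPKM, and AT5G20700 (20.01 FPKM, 0.82) and AT1G35830 (20.02 FPKM, -0.13) just over it. For span, AT4G04675 (286 bases) and AT4G36791 (291 bases) were left out, and AT3G07675 (302 bases) and NAD4L (303 bases) were kept. The locus column joins overlapping genes, so 331 nuclear rows kept had under 300 exon bases of their own.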

How the data were processed

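The authors deposited 1 table of FPKM values for 32823 rows, with 4 value columns, 1 for each library. Seedling total RNA was made into strand-specific libraries, per the labels' protocols. bcl2fastq 2.1.7, TopHat, Cufflinks and the build TAIR10 are named per the submitters' processing notes; the sources used here do not give other versions, how strand was handled or which annotation was counted. FPKM as deposited was used with a pseudocount of 1, and Python 3.11.15, pandas 2.3.3 and scipy 1.17.1 were used. With 1 library per group no test was run. The log2(FPKM + 1) scale understates folds of low rows.

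Gene positions, exons, opposite-strand overlaps and sequences came from RefSeq TAIR10.1: 32538 rows matched by locus code, and start and end were equal for 22475 of 22477 loci holding 1 gene. Depth is not stated. Fragment numbers were estimated from the mode of FPKM times exon length over rows of 800 to 2500 bases, under 6 FPKM, without overlapping genes, and 95% Clopper-Pearson intervals used the rounded numbers. The calls and intervals were tested on simulated data.

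Genes to name were the 12 highest and 12 lowest nuclear rows (given as ranges, with 1 example each), the 6 highest and 6 lowest with no gene opposite (not all printed), the 10 most abundant, 3 highest and 3 lowest per organelle, up to 4 members per list, and all miR164 precursors and targets. Well covered rows and neighbouring genes were named after their values were seen. The rows and gene lists were chosen with earlier results of these data known. A list's opposite rows have at least 50% of their exon bases opposite 1 coding gene.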

Additional observations from a re-analysis of the deposited data

Results flagged for a closer look

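Of the well covered rows, 19 were at least 2-fold apart after heat and at least 2-fold apart in the opposite direction without heat. Beside them, 10 well covered rows were higher and 7 lower both with and without heat, so opposite calls were about as frequent as calls in the same direction. The difference between the heated and unheated differences was not tested, since each is a single pair of libraries, and 4 of the 19 had a control library at 0. The fragment minimum was set on the heat libraries only, so control calls could rest on few fragments. In WT control and miR164OE control AT2G05215 held about 0.839 and 0 fragments and AT1G68250 about 0 and 1.37. By contrast, AT1G26255 held about 147 and 270.

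The 12 rows higher in miR164OE after heat and lower without it were the following. AT4G14120 had a heated difference of 2.79 and an unheated difference of -1.06, LTP2 1.65 and -1.80, AT2G05255 1.62 and -4.45, and AT2G05215 1.53 and -1.27. SAHH1 had 1.44 and -1.24, AT1G06337 1.44 and -6.93, AT4G22470 1.26 and -1.08, and AT1G63380 1.24 and -1.09. AT1G05553 had 1.11 and -2.49, MT3 1.09 and -1.26, SCRL7 1.06 and -1.80, and AT4G08285 1.04 and -1.07.

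The 7 rows lower after heat and higher without it were AT1G68250, with a heated difference of -2.50 and an unheated difference of 2.23, AT1G13609 with -2.32 and 1.75, AT1G26255 with -2.10 and 1.04, AT2G08595 with -1.67 and 2.30, CYP71A13 with -1.59 and 1.58, AT1G76870 with -1.17 and 1.53, and AT1G04933 with -1.001 and 1.16. The heated call of AT1G04933 was lost with nuclear rows rescaled (-0.902), centred (-0.866) and with a pseudocount of 5 (-0.889).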

How the results depend on the processing

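Counts depended on the minimums: 542 higher and 573 lower rows at a mean of 5 FPKM, 86 and 87 at 50 FPKM, 3675 and 2251 with no FPKM minimum (where the median difference was 0.22 in place of -0.13), and 32 and 50 among rows with no gene opposite. They were 312 and 470 at 1.5-fold and 73 and 79 at 4-fold. In alternatives chosen after seeing the data they were 100 and 115 with at least 300 exon bases, 47 and 50 with 40 fragments as well, and 119 and 141 with both libraries above 0. Rescaling nuclear rows gave 194 and 166, and centring 209 and 158, so the larger side changed. The abscisic acid and cold median of 0.56, over 3 rows, became 0.031 at 5 FPKM (4 rows), 0.031 at 50 FPKM (2 rows) and 0.060 with no minimum (9 rows). The members thus differed between settings. At 50 FPKM COR47, with a mean of 31.4 FPKM, dropped out, and COR15B (0.56) and ERD10 (-0.50) were left. The medians of the jasmonate signalling, small heat shock protein, photosystem, Calvin cycle, mitochondrial and plastid rows kept their sign under each alternative that left members. The plastid median of -0.81 ranged from -0.42 at 5 FPKM to -1.21 at 50 FPKM, where 1 row was left. With a pseudocount of 5, SAM2 (0.885), NAD1C (0.987) and ORF204 (0.918) were under 2-fold. Depth limits single rows: the median half-width of the counting interval was 0.56 on the log2 scale, before any variation between plants. No paired analysis was possible because each group has 1 library.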

Other observations

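Rows with no annotated gene opposite and the largest differences were also often at 0 in 1 library. PLS, which encodes the short POLARIS peptide of root growth, was listed at 36.3 FPKM in WT control, 31.5 in miR164OE control, 0 in WT heat and 52.7 in miR164OE heat, about 26.3 fragments in the last. AT2G36815 was listed at 51.6 FPKM in miR164OE heat and at 0 in the other 3 libraries.

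In a few other rows WT heat was the lowest library. AT3G44635 was at 276 FPKM in WT control, 233 in miR164OE control, 42.3 in WT heat and 237 in miR164OE heat. AT2G41231, with 406 exon bases opposite a locus that carries the symbol ORS1, was at 1755, 984, 726 and 1581 FPKM in the same order, on about 259 and 812 heat fragments. AT3G57710, a protein kinase family member, was at 28.6, 39.8, 15.9 and 37.7 FPKM. The row AT4G04335, opposite the ubiquitin gene UBQ14 (a family with near-identical copies), was at 37.2, 128, 0 and 287 FPKM.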
